A study of Mus musculus with 14 samples.

Results

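The 36 genes described here make, sense and move cholesterol, and their expression was read in astrocytes, in the other sorted cells and in whole tissue of the mouse cortex. They were taken by gene symbol from a deposited table of 32830 genes and form 4 groups by role: 18 enzymes of cholesterol synthesis, 7 regulators of sterol level, 6 genes of efflux and lipoproteins, and 5 genes of transport inside the cell, storage and turnover. All 36 were in the table, and all 36 reached a normalised read count of 10 in at least 2 libraries, the minimum for testing, as did 22575 genes in all. The mice, of strain SW, were 14 days old and carried Aldh1l1-GFP, an astrocyte reporter driven by the Aldh1l1 gene, which all 6 groups share. Upper and deep cortical layers were dissected apart by hand. From each, GFP-positive cells (astrocytes, 3 libraries per layer), GFP-negative cells (non-astrocytes, 2 per layer) and undissociated cortex (bulk tissue, 2 per layer) were sequenced. Sorted cells had passed through papain digestion and a flow sorter and bulk tissue had not, so a difference between sorted cells and bulk tissue cannot be told apart from an effect of dissociation. A fraction's read count also mixes cells, so that fewer cells of a type and less RNA per cell cannot be told apart. The labels do not say whether the libraries of a group stem from different animals, and the p-values speak of the spread among the libraries at hand, which could be of technical origin.

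Cholesterol is built from acetyl-CoA through mevalonate, isoprenoid diphosphates, squalene and lanosterol. When membrane sterol is low, SCAP carries SREBP transcription factors out of the endoplasmic reticulum for cleavage and they switch on the synthesis enzymes; INSIG proteins hold SCAP back when sterol is plentiful. When sterol is high, oxysterols activate the LXR receptors, which raise efflux genes such as Abca1, Abcg1 and Apoe. Plasma cholesterol hardly crosses the blood-brain barrier, so the brain makes its own. Oligodendrocytes use much of it for myelin, and astrocytes are known to pass sterol to neurons on apolipoprotein E particles.

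The libraries held 18226457 to 30316765 reads in genes. The upper layer non-astrocytes replicate 1 stood apart, with 30333 genes above 0 against 23671 to 26356 in the other 13 libraries. Marker sums matched the labels of the sort. The summed normalised read count of 10 astrocyte markers was 1014229 to 1498321 in the astrocyte libraries, 28118 to 35475 in the non-astrocytes and 203631 to 242214 in bulk tissue, and all 10 were higher in astrocytes than in non-astrocytes by limma's adjusted p. The 10 neuron markers summed to 761 to 1149 in astrocytes, 4842 to 10488 in non-astrocytes and 143209 to 189349 in bulk tissue, so neuronal RNA was scarcer in the GFP-negative cells than in the cortex they came from. Microglial markers (9 genes) summed to 146089 to 213522 in non-astrocytes against 7076 to 8471 in bulk tissue, and mural markers (7 genes) to 218230 to 294098 against 8344 to 10703. Endothelial markers (8 genes) summed to 34719 to 48917 against 4165 to 5459.6, and meningeal fibroblast markers (5 genes) to 8399.9 to 19930.5 against 748.3 to 925.3. No marker of any of the lists was at 0 in every library of a group.

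Synthesis enzymes were higher in astrocytes than in non-astrocytes almost throughout the pathway. With limma and Benjamini-Hochberg adjustment over all genes tested, 17 of the 18 rose and 1, Ebp, fell, with a median log2 difference of 2.26 against -0.08 over all genes tested (n = 6 against 4). The sort separated much of the transcriptome: limma called 66.3% of genes, with 29.6% higher in astrocytes and 36.8% lower. Against bulk tissue, 16 of the 18 rose, Ebp fell, and Pmvk was not called except without deep layer astrocytes replicate 2 (0.40), with a median of 1.52 against -0.10 over all genes, where 64.8% were called, 28.8% higher and 36.1% lower. Both comparisons use the same astrocyte libraries. Without the upper layer non-astrocytes replicate 1 the 18 enzymes were still called against non-astrocytes, as were 17 of the other 18 members, the same numbers as with it. Differences are taken between means of log2(value + 1), where the added 1 shrinks the changes of low genes.

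Msmo1, the sterol methyl oxidase that starts removal of the C4 methyl groups after lanosterol, showed the largest difference among the enzymes in both comparisons (chromosome 8, 64718139 to 64733792, GRCm38). Its normalised read counts were 16928, 24451 and 14308 in deep layer astrocytes, 20510.4, 19216 and 18097 in upper layer astrocytes, 2070.0 and 1709 in deep layer non-astrocytes, 1229 and 1309 in upper layer non-astrocytes, 1621 and 1538 in deep layer bulk tissue, and 1546 and 1171 in upper layer bulk tissue. Every astrocyte library lay above every other library, and the non-astrocytes overlapped bulk tissue. The log2 difference was 3.59 (SE 0.144, adjusted p = 9.53e-12) against non-astrocytes, a 12.1-fold rise, and 3.68 (SE 0.144, adjusted p = 6.97e-12) against bulk tissue, a 12.8-fold rise (limma).

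Hmgcs1 encodes the cytosolic synthase that makes HMG-CoA, the precursor of mevalonate (chromosome 13, 119690379 to 119708260). It was read at 9646, 12187 and 13147 in deep layer astrocytes, 9826, 10823 and 15024 in upper layer astrocytes, 3422 and 2749 in deep layer non-astrocytes, 1536 and 1743 in upper layer non-astrocytes, 6042 and 5516 in deep layer bulk tissue, and 4595 and 4624 in upper layer bulk tissue. The 3 fractions did not overlap, in the order astrocytes, bulk tissue, non-astrocytes. In limma, astrocytes exceeded non-astrocytes by 2.38 (SE 0.138, adjusted p = 6.35e-10) and bulk tissue by 1.17 (SE 0.138, adjusted p = 2.24e-06), and non-astrocytes lay below bulk tissue (-1.20, SE 0.152, adjusted p = 5.61e-06).

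Sqle, squalene epoxidase, performs the first oxygen-dependent step (chromosome 15, 59315077 to 59331192). Its counts were 9732, 13910.5 and 11170.0 in deep layer astrocytes, 12655, 14669 and 15632 in upper layer astrocytes, 2054 and 2042 in deep layer non-astrocytes, 1264 and 1499.8 in upper layer non-astrocytes, 2729 and 2682 in deep layer bulk tissue, and 2443 and 2615 in upper layer bulk tissue. Again no astrocyte library overlapped the other fractions, and the non-astrocytes were lowest. Astrocytes exceeded non-astrocytes by 2.93 (SE 0.119, adjusted p = 1.11e-11), a 7.62-fold rise, and bulk tissue by 2.29 (SE 0.119, adjusted p = 1.76e-10), a 4.89-fold rise (limma).

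Ebp, the sterol isomerase that acts between the demethylation steps and Sc5d, went the other way (chromosome X, 8185329 to 8193512). Its counts were 148.7, 154.6 and 164.9 in deep layer astrocytes, 186.2, 151.5 and 200.6 in upper layer astrocytes, 498.5 and 480.1 in deep layer non-astrocytes, 258.0 and 390.4 in upper layer non-astrocytes, 291.4 and 206.0 in deep layer bulk tissue, and 208.3 and 250.4 in upper layer bulk tissue. All 6 astrocyte libraries lay below all of the others, whereas non-astrocytes and bulk tissue overlapped. The fall was -1.24 (SE 0.166, adjusted p = 8.32e-06) on the log2 scale against non-astrocytes and -0.50 (SE 0.166, adjusted p = 0.015) against bulk tissue in limma. The call against bulk tissue was lost without deep layer bulk tissue replicate 1 (-0.38) or upper layer bulk tissue replicate 2 (-0.44). Per kilobase of exon, Ebp was the lowest of the 18 enzymes in astrocytes, at 72.6 normalised reads. In non-astrocytes it stood at 176.1 and in bulk tissue at 103.5.

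**Figure D1:**
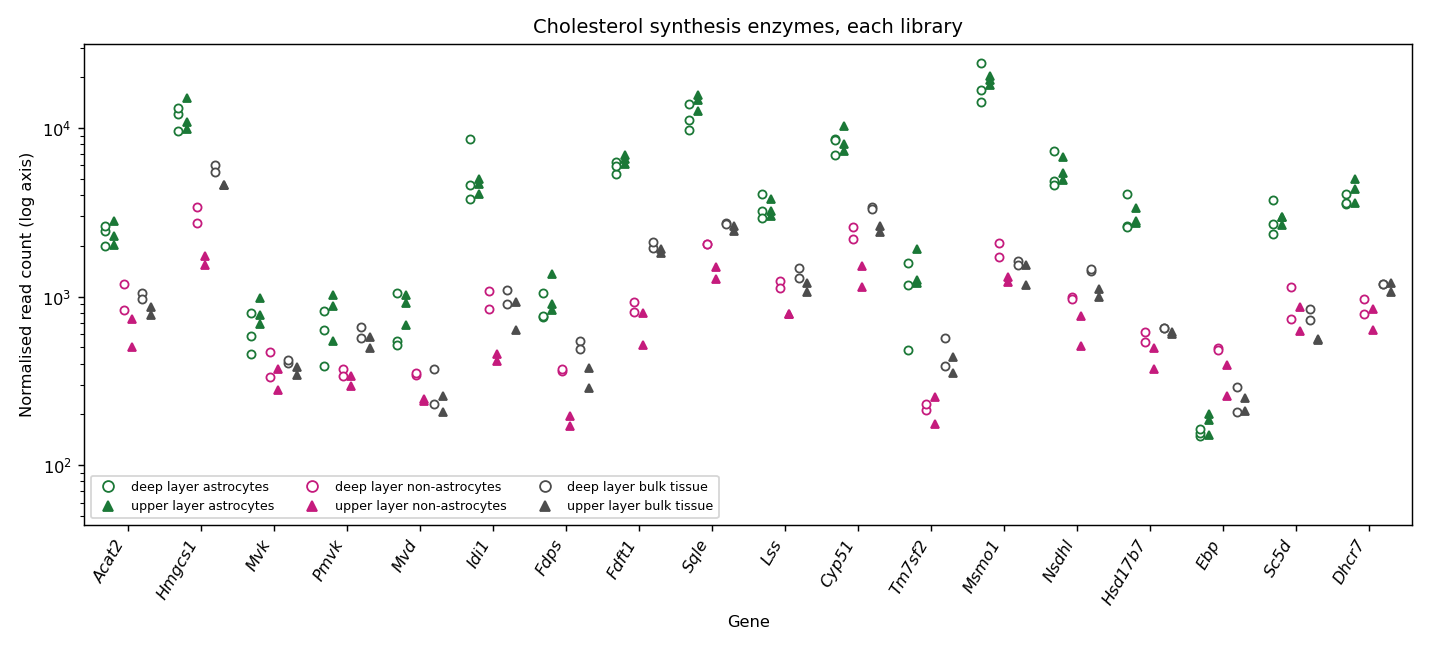
Normalised read count (log axis) of the 18 synthesis enzymes in pathway order, with 1 point per library, coloured by fraction and shaped by layer. Astrocyte points stand highest for most enzymes, from 14308 to 24451 for Msmo1, and lowest for Ebp, from 149 to 201.

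The remaining 14 enzymes were all higher in astrocytes than in non-astrocytes. In the mevalonate part of the pathway the rises ran from 0.96 to 2.93 on the log2 scale. Acat2, the cytosolic thiolase, differed by 1.59 (a near copy, Acat3, lies beside it, so reads may be split between them), mevalonate kinase Mvk by 0.96, phosphomevalonate kinase Pmvk by 1.02, mevalonate decarboxylase Mvd by 1.38 and farnesyl diphosphate synthase Fdps by 1.83. Idi1, the isopentenyl diphosphate isomerase, differed by 2.93. Among the enzymes committed to sterols, squalene synthase Fdft1 differed by 3.05, lanosterol synthase Lss by 1.80 and lanosterol demethylase Cyp51 by 2.22. The late enzymes Tm7sf2, a sterol reductase, Nsdhl and Hsd17b7, which act with Msmo1 on the C4 methyl groups, Sc5d, a sterol desaturase, and Dhcr7, the reductase that yields cholesterol, differed by 2.44, 2.82, 2.59, 1.80 and 2.31. In bulk tissue the Pmvk counts were 656.7 and 567.2 in the deep and 576.0 and 495.8 in the upper layers, inside the astrocytes' span of 390.1 to 1017, and its difference of 0.25 (SE 0.203, adjusted p = 0.292) was not called by limma.

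Exons of 11 of the 36 genes overlap those of another gene, and no source used here says whether the counting was stranded. The largest overlaps among the enzymes were 26.7% of the exon bases of Fdps, 18.3% of Fdft1 (with Ctsb), and 12.1% each of Hmgcs1 and Tm7sf2, so reads of these genes and their neighbours may have been assigned imperfectly.

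Levels of different genes can be compared only roughly per kilobase of exon, since the length joins the exons of all annotated transcripts. On that scale the enzymes with the highest astrocyte means were Msmo1 (3079 normalised reads per kilobase), Hmgcs1 (2563), Sqle (2337), Nsdhl (1978) and Cyp51 (1876). In bulk tissue the order differed, with Hmgcs1 first at 1131, then Cyp51 at 664.3, Sqle at 471.9, Fdft1 at 458.0 and Nsdhl at 436.2, and Msmo1 at 239.1. In non-astrocytes Hmgcs1 was again first, at 514.3, followed by Cyp51 at 421.0.

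Bulk tissue exceeded non-astrocytes for most enzymes. By limma 10 of the 18 were lower in non-astrocytes, 1 was higher (Ebp, by 0.73, SE 0.182, adjusted p = 0.0025) and 7 were not called, with a median log2 difference of -0.49 against -0.04 over all genes, of which 61.6% were called, 30.5% higher and 31.1% lower. The largest falls were those of Fdft1 (-1.37, SE 0.138, adjusted p = 4.83e-07) and Hmgcs1. These libraries are also the controls of the comparisons above, so the values stand side by side and are not separate evidence.

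The promoters of 4 enzymes are shown because most of the enzymes rose together while Ebp fell. Each is the 250 bases before the transcription start in RefSeq (GRCm38.p6), 5′ to 3′ on the gene's strand. Capitals mark a match on either strand to TCACNCCAC, the core of a sterol regulatory element, or to CCAAT, a box bound by the factor NF-Y. They lie at chr13:119690101-119690350 (plus strand, Hmgcs1), chr8:122443423-122443672 (minus strand, Mvd), chr9:42264301-42264550 (minus strand, Sc5d) and chrX:8193513-8193762 (minus strand, Ebp).
Hmgcs1: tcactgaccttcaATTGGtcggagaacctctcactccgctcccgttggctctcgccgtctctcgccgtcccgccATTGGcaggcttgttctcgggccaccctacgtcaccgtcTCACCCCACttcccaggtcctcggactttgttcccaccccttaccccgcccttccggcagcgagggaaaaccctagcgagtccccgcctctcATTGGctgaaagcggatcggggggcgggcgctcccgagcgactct
Mvd: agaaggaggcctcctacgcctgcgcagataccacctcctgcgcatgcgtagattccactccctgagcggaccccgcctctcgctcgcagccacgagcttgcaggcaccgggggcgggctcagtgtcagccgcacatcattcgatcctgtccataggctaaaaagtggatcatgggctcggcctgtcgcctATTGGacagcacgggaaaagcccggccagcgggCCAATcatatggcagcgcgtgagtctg
Sc5d: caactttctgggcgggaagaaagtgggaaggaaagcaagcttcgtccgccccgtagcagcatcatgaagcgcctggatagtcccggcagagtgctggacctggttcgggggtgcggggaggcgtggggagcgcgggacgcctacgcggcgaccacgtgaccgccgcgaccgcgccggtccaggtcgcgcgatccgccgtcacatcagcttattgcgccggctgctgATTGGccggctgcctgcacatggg
Ebp: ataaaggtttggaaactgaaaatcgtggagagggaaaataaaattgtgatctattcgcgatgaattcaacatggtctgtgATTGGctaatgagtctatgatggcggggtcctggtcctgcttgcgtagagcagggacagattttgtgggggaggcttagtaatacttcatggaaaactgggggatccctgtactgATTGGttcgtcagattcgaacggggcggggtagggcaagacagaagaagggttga

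Windows were found for 29 of the 36 genes and for 15 of the 18 enzymes (not for Abcg1, Clu, Fdft1, Fdps, Npc1, Sqle and Stard4). CCAAT was present in 14 of the 15 enzymes (93.3%), against 37.5% of 27025 genes with a window, and the GC box GGGCGG in 14 of 15 (93.3%), against 35.4%. Among all 29 members with a window CCAAT was present in 22 (75.9%) and the GC box in 23 (79.3%). CCAAT was in 4 of 7 regulators, 1 of 4 efflux genes and 3 of 3 transport and storage genes. Dhcr7 matched CCAAT only in a window inside the gene, of which 250 of 250 bases lay in annotated exons. The windows of Idi1 and Tm7sf2 also lay wholly in exons. The letters TCACNCCAC were found in Hmgcs1 alone among the 15 enzymes (6.67%), against 1.22% of all genes. Both strands were searched, a gene counted once if any of its windows matched, and none of these motifs contains another. Ebp holds 2 CCAAT matches and 1 GC box, Mvd 2 and 1, Sc5d 1 and 2, and Hmgcs1 3 and 2. An LXR-type repeat, written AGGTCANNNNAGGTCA, matched in 0 of the 29 genes and in 0.0148% of all genes. A string this rare cannot tell whether the 29 genes carry such a repeat in other letters. A match describes letters in this window and is not a measured binding site. Only the exact letters were searched, so a gene without a match may still hold a site in other letters.

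Regulators split. Against non-astrocytes 5 of the 7 rose in astrocytes (Srebf1, Srebf2, Scap, Insig1 and Insig2) and both LXR genes, Nr1h2 and Nr1h3, fell, with a median log2 difference of 0.80. Against bulk tissue 4 rose (Srebf1, Insig1, Insig2 and Nr1h3), Nr1h2 fell, and Srebf2 (0.30) and Scap (0.17) were not called by limma. Srebf2 was called without upper layer astrocytes replicate 1 (0.44). The shares of all genes called are those given above for the enzymes.

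Srebf1 encodes SREBP1, the form known mainly for fatty acid genes (chromosome 11, 60199089 to 60222581). Its counts were 2345, 2828 and 3295 in deep layer astrocytes, 2499, 3990.2 and 3656 in upper layer astrocytes, 576.2 and 811.2 in deep layer non-astrocytes, 605.0 and 795.2 in upper layer non-astrocytes, 491.1 and 595.9 in deep layer bulk tissue, and 470.0 and 463.8 in upper layer bulk tissue. Astrocytes lay above both other fractions in every library. The rise was 2.14 (SE 0.161, adjusted p = 1.19e-08) against non-astrocytes and 2.60 (SE 0.161, adjusted p = 1.27e-09) against bulk tissue (limma).

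Srebf2 encodes SREBP2, the form known mainly for cholesterol genes (chromosome 15, 82147181 to 82205379). It was read at 2663, 2946 and 3739.9 in deep layer astrocytes, 2935, 5619.7 and 5126 in upper layer astrocytes, 1519 and 2325 in deep layer non-astrocytes, 1273 and 2061 in upper layer non-astrocytes, 2854 and 2832 in deep layer bulk tissue, and 3295 and 3035 in upper layer bulk tissue. All astrocyte libraries exceeded the non-astrocytes, but they spanned the bulk tissue values. In limma the difference was 1.08 (SE 0.196, adjusted p = 0.000174) from non-astrocytes and 0.30 (SE 0.196, adjusted p = 0.199) from bulk tissue, and non-astrocytes lay below bulk tissue (-0.78, SE 0.214, adjusted p = 0.00517). Per kilobase the astrocyte means of Srebf1 and Srebf2 were 550.6 and 534.3, while in bulk tissue they were 89.7 and 418.1.

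Insig1, which retains SCAP in the endoplasmic reticulum, had the highest level per kilobase of the 7, at 2367 in astrocytes (chromosome 5, 28071363 to 28078662). Counts were 6982, 6031 and 7482 in deep layer astrocytes, 7563, 7516 and 8359.7 in upper layer astrocytes, 4320.5 and 2725 in deep layer non-astrocytes, 3090.2 and 2371 in upper layer non-astrocytes, 1580.2 and 1764 in deep layer bulk tissue, and 1411 and 1586 in upper layer bulk tissue. The fractions did not overlap, in the order astrocytes, non-astrocytes, bulk tissue. Astrocytes exceeded non-astrocytes by 1.26 (SE 0.137, adjusted p = 9.13e-07) and bulk tissue by 2.20 (SE 0.137, adjusted p = 1.37e-09), and non-astrocytes exceeded bulk tissue by 0.95 (SE 0.151, adjusted p = 5.83e-05) (limma). Its relative Insig2 ranged from 769.2 to 892.2 in astrocytes and from 479.1 to 601.4 in all other libraries, and differed by 0.71 and 0.62.

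Nr1h2, LXR beta, was low throughout (chromosome 7, 44549616 to 44553951). Its counts were 212.4, 123.4 and 292.9 in deep layer astrocytes, 268.3, 303.0 and 299.7 in upper layer astrocytes, 483.9 and 592.0 in deep layer non-astrocytes, 453.0 and 544.8 in upper layer non-astrocytes, 400.6 and 362.1 in deep layer bulk tissue, and 400.0 and 338.6 in upper layer bulk tissue. The astrocytes were lowest without overlap, and non-astrocytes lay above bulk tissue in every library, although limma did not call that last difference (0.46, SE 0.215, adjusted p = 0.0761). The fall in astrocytes was -1.10 (SE 0.197, adjusted p = 0.000142) against non-astrocytes and -0.64 (SE 0.197, adjusted p = 0.00956) against bulk tissue.

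Nr1h3, LXR alpha, had the lowest level per kilobase of the regulators in all 3 fractions (chromosome 2, 91184061 to 91202834). It was read at 88.5, 120.6 and 108.9 in deep layer astrocytes, 113.6, 118.8 and 103.6 in upper layer astrocytes, 153.8 and 198.2 in deep layer non-astrocytes, 137.4 and 231.6 in upper layer non-astrocytes, 48.2 and 35.1 in deep layer bulk tissue, and 54.4 and 27.0 in upper layer bulk tissue. Non-astrocytes were highest, astrocytes intermediate and bulk tissue lowest, with no overlap. The log2 difference of astrocytes was -0.70 (SE 0.233, adjusted p = 0.0158) from non-astrocytes and 1.43 (SE 0.233, adjusted p = 6.62e-05) from bulk tissue (limma). The fall was no longer called without deep layer non-astrocytes replicate 2 (-0.61) or upper layer non-astrocytes replicate 2 (-0.51). Microglial, mural, endothelial and meningeal fibroblast marker sums, given above, were also highest in non-astrocytes. So was the sum of 8 oligodendrocyte lineage genes, given below. The part of these cells in the LXR values was not tested.

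Scap, the sterol sensor that escorts SREBP, spanned 941.8 to 1864 in astrocytes, 535.7 to 978.3 in non-astrocytes and 1076 to 1203 in bulk tissue. Astrocytes and non-astrocytes overlapped, and the difference of 0.80 (SE 0.203, adjusted p = 0.00256) was called by limma.

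The genes of efflux and lipoproteins held both the highest level and the largest contrast of the 36. Against non-astrocytes 4 of the 6 rose in astrocytes (Apoe, Clu, Lcat and Abca1), Abcg1 fell and Lrp1 was not called, with a median log2 difference of 2.28. Against bulk tissue 5 rose and Abcg1 fell, with a median of 2.00. Of all genes 29.6% were higher and 36.8% lower against non-astrocytes, and 28.8% and 36.1% against bulk tissue.

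Apoe, the main apolipoprotein of brain lipoprotein particles, had the highest level per kilobase of the 36 in every fraction (chromosome 7, 19696109 to 19699188): 33807 in astrocytes, 8536 in bulk tissue and 3094 in non-astrocytes. Counts were 47876, 47049 and 67759 in deep layer astrocytes, 72772, 101526 and 96689.6 in upper layer astrocytes, 5020.5 and 7975 in deep layer non-astrocytes, 4609 and 8851 in upper layer non-astrocytes, 17629 and 18933 in deep layer bulk tissue, and 21695 and 14739.5 in upper layer bulk tissue. The fractions did not overlap. Astrocytes exceeded non-astrocytes by 3.44 (SE 0.203, adjusted p = 7.52e-10), a 10.9-fold rise, and bulk tissue by 1.94 (SE 0.203, adjusted p = 6.22e-07), a 3.82-fold rise (limma).

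Clu encodes clusterin, also called apolipoprotein J (chromosome 14, 65968483 to 65981547). Its counts were 32149, 47995 and 28479 in deep layer astrocytes, 40984, 58482 and 38415 in upper layer astrocytes, 1114 and 1294 in deep layer non-astrocytes, 1101 and 1267 in upper layer non-astrocytes, 9718 and 11118 in deep layer bulk tissue, and 9296 and 8089 in upper layer bulk tissue. It followed the same order as Apoe with no overlap, and the non-astrocytes were far below bulk tissue. Limma gave 5.07 (SE 0.160, adjusted p = 7.93e-13) against non-astrocytes, a 33.5-fold rise, and 2.07 (SE 0.160, adjusted p = 1.72e-08) against bulk tissue, a 4.20-fold rise.

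Lcat, the enzyme that esterifies cholesterol on lipoproteins, showed the largest rise of the 36 against non-astrocytes (chromosome 8, 105939551 to 105943382). It was read at 4455, 7231 and 3814 in deep layer astrocytes, 4512, 5600.0 and 4235 in upper layer astrocytes, 127.1 and 133.7 in deep layer non-astrocytes, 132.8 and 132.8 in upper layer non-astrocytes, 683.8 and 599.6 in deep layer bulk tissue, and 550.2 and 637.1 in upper layer bulk tissue. The non-astrocytes stayed within 127.1 to 133.7, and no fraction overlapped another. Astrocytes exceeded them by 5.20 (SE 0.160, adjusted p = 6.22e-13), a 36.7-fold rise, and exceeded bulk tissue by 2.98 (SE 0.160, adjusted p = 2.47e-10), a 7.88-fold rise (limma).

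Abca1 and Abcg1, both sterol export pumps under LXR control, went opposite ways. Abca1 (chromosome 4, 53030787 to 53159895) was read at 11049, 14166 and 15089 in deep layer astrocytes, 10466, 13935 and 15745 in upper layer astrocytes, 5941 and 6285 in deep layer non-astrocytes, 5763 and 6364 in upper layer non-astrocytes, 970.4 and 910.0 in deep layer bulk tissue, and 1189.8 and 1147 in upper layer bulk tissue. Astrocytes were highest, non-astrocytes next and bulk tissue lowest, with no overlap. Astrocytes exceeded non-astrocytes by 1.12 (SE 0.130, adjusted p = 1.77e-06) and bulk tissue by 3.66 (SE 0.130, adjusted p = 2.33e-12), a 12.6-fold rise and the second largest of the 36 in that comparison, after Msmo1 (limma).

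Abcg1 (chromosome 17, 31057675 to 31117988) was read at 10.6, 2.84 and 9.52 in deep layer astrocytes, 17.2, 1.09 and 15.4 in upper layer astrocytes, 1063 and 1481 in deep layer non-astrocytes, 1088 and 1365 in upper layer non-astrocytes, 667.3 and 675.3 in deep layer bulk tissue, and 589.8 and 587.0 in upper layer bulk tissue. In astrocytes it was near 0 in every library, while all other libraries stood at 587.0 or more. The log2 difference was -7.25 (SE 0.516, adjusted p = 1.96e-08) against non-astrocytes and -6.27 (SE 0.516, adjusted p = 9.67e-08) against bulk tissue (limma). With counts this low the size depends on the added constant, and with 5 in place of 1 the differences were -6.57 and -5.60. Non-astrocytes lay above bulk tissue in each library, by 0.98 (SE 0.565, adjusted p = 0.151), which limma did not call but edgeR (0.97) and DESeq2 (0.99) on the recovered reads did. The low and scattered astrocyte counts, from 1.09 to 17.2, enter the spread of this gene.

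Lrp1, a large receptor that takes up apolipoprotein E particles, was the one gene of the 6 that limma did not call between the sorted fractions with all libraries (chromosome 10, 127538161 to 127621148). Counts were 13835, 16629.6 and 26911 in deep layer astrocytes, 15837, 30329 and 32989 in upper layer astrocytes, 19684 and 30641 in deep layer non-astrocytes, 27023 and 36051 in upper layer non-astrocytes, 9987 and 10036 in deep layer bulk tissue, and 11806 and 11835 in upper layer bulk tissue. Astrocytes and non-astrocytes overlapped widely, and both lay above bulk tissue. The difference between them was -0.37 (SE 0.224, adjusted p = 0.16), with a 95% interval of -0.84 to 0.11, and the rise against bulk tissue was 0.98 (SE 0.224, adjusted p = 0.00124) (limma). Without deep layer astrocytes replicate 3 the gene was called lower in astrocytes than in non-astrocytes (-0.50, adjusted p = 0.0448). Per kilobase, Lrp1 stood next to Apoe in non-astrocytes, at 1600.1.

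**Figure D2:**
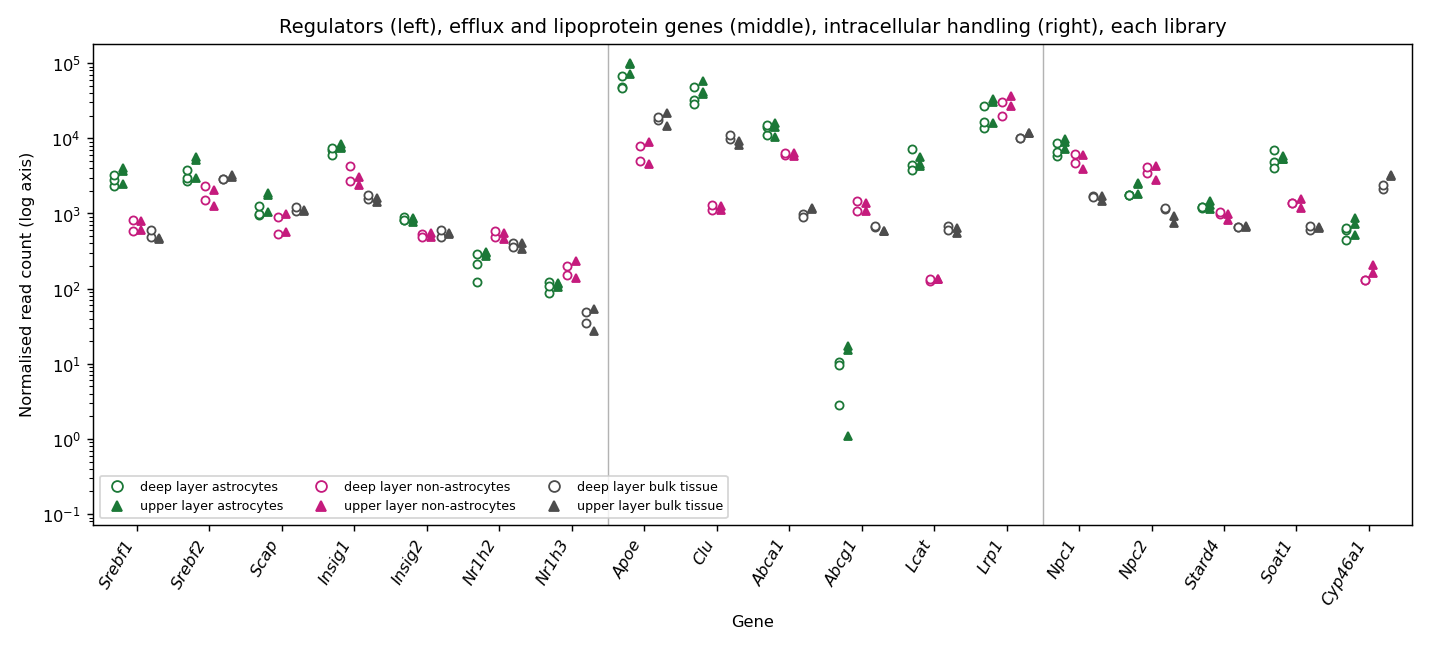
Normalised read count (log axis) of the 18 members that are not synthesis enzymes, with 1 point per library, coloured by fraction and shaped by layer. Abcg1 astrocyte points, at 1.09 to 17.2, lie below those of every other gene, and Cyp46a1 is highest in bulk tissue, at 2121 to 3230.4.

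Of the 5 genes of transport inside the cell, storage and turnover, 4 rose in astrocytes against non-astrocytes and Npc2 fell, with a median log2 difference of 0.59. Against bulk tissue 4 rose and Cyp46a1 fell, with a median of 1.00. The shares of all genes called are those given for the efflux genes.

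Npc1 and Npc2 are the membrane and the soluble protein that together release cholesterol from lysosomes. Npc1 (chromosome 18, 12189692 to 12236400) was read at 5779.6, 8720.5 and 6612 in deep layer astrocytes, 7235, 9676 and 9046 in upper layer astrocytes, 4640.2 and 6198 in deep layer non-astrocytes, 3927 and 6050.2 in upper layer non-astrocytes, 1718 and 1651 in deep layer bulk tissue, and 1458 and 1719.9 in upper layer bulk tissue. The sorted fractions overlapped and both lay above bulk tissue. Astrocytes exceeded non-astrocytes by 0.59 (SE 0.157, adjusted p = 0.00367) and bulk tissue by 2.24 (SE 0.157, adjusted p = 5.54e-09) (limma).

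Npc2 (chromosome 12, 84754562 to 84773152) was read at 1738, 1749 and 1752 in deep layer astrocytes, 1834, 2462 and 2507 in upper layer astrocytes, 3412 and 4134 in deep layer non-astrocytes, 2759 and 4285 in upper layer non-astrocytes, 1163 and 1195 in deep layer bulk tissue, and 929.0 and 744.2 in upper layer bulk tissue. Here the non-astrocytes were highest and bulk tissue lowest, with no overlap. Astrocytes lay -0.86 (SE 0.141, adjusted p = 6.61e-05) from non-astrocytes and 1.00 (SE 0.141, adjusted p = 1.52e-05) from bulk tissue (limma), so that the pair differed in direction between the sorted fractions.

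Soat1, which esterifies cholesterol for storage in droplets, was the member of this group with the largest rise against bulk tissue (chromosome 1, 156424525 to 156474331). Its counts were 4778, 6892 and 4003 in deep layer astrocytes, 5289.7, 5895 and 5368 in upper layer astrocytes, 1382 and 1381 in deep layer non-astrocytes, 1195 and 1549 in upper layer non-astrocytes, 609.7 and 687.3 in deep layer bulk tissue, and 665.4 and 640.1 in upper layer bulk tissue. No fraction overlapped another. Limma gave 1.95 (SE 0.141, adjusted p = 7.96e-09) against non-astrocytes and 3.02 (SE 0.141, adjusted p = 4.84e-11) against bulk tissue. Stard4, a cytosolic sterol carrier, had the same order with smaller differences, 0.40 and 0.92, with counts of 1159 to 1486 in astrocytes, 815.4 to 1049 in non-astrocytes and 655.9 to 672.8 in bulk tissue.

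Cyp46a1, the cholesterol hydroxylase known from neurons, was ordered differently (chromosome 12, 108334381 to 108362234). It was read at 447.3, 601.4 and 633.4 in deep layer astrocytes, 511.8, 880.7 and 721.8 in upper layer astrocytes, 130.3 and 131.9 in deep layer non-astrocytes, 207.3 and 162.5 in upper layer non-astrocytes, 2121 and 2422 in deep layer bulk tissue, and 3169 and 3230.4 in upper layer bulk tissue. Bulk tissue was highest, astrocytes intermediate and non-astrocytes lowest, with no overlap. Astrocytes exceeded non-astrocytes by 1.99 (SE 0.158, adjusted p = 2.43e-08) and lay -2.12 (SE 0.158, adjusted p = 1.15e-08) from bulk tissue, and non-astrocytes lay -4.11 (SE 0.173, adjusted p = 4.75e-11) from bulk tissue (limma). The neuron markers also summed highest in bulk tissue, at 143209 to 189349, and 9 of 10 were lower in astrocytes than in non-astrocytes. The part of neurons in the Cyp46a1 values was not tested.

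Between non-astrocytes and bulk tissue, limma called 30.5% of all genes higher in non-astrocytes and 31.1% lower. Of the regulators 3 were higher (Nr1h3, Insig1 and Srebf1) and 2 lower (Srebf2 and Scap). Of the efflux genes Abca1 and Lrp1 were higher and Apoe, Clu and Lcat lower. Of the last group Npc1, Npc2, Soat1 and Stard4 were higher and Cyp46a1 lower. Several calls of this comparison turned on 1 library. Srebf1 lost its call, at 0.33 to 0.46, without replicate 2 of either non-astrocyte group, deep layer bulk tissue replicate 1 or either upper layer bulk tissue library. Scap lost it, at -0.63 to -0.44, without replicate 1 of either non-astrocyte group or replicate 2 of either bulk tissue group. The enzyme Lss lost it, at -0.34 to -0.32, without deep layer non-astrocytes replicate 2, deep layer bulk tissue replicate 1 or upper layer bulk tissue replicate 2. Sc5d gained a call without deep layer non-astrocytes replicate 2 (0.47), Hsd17b7 without upper layer non-astrocytes replicate 2 (-0.45) or deep layer astrocytes replicate 2 (-0.34), Idi1 without deep layer astrocytes replicate 2 (-0.45), Nr1h2 without deep layer astrocytes replicate 2 or 3 (0.46) and Abcg1 without upper layer astrocytes replicate 2 (0.98). Astrocyte libraries bear on this comparison through the shared estimate of the spread. With only the non-astrocyte and bulk tissue libraries fitted, limma also called Idi1 (-0.45, adjusted p = 0.0252), Hsd17b7 (-0.34, adjusted p = 0.0497), Nr1h2 (0.46, adjusted p = 0.0168) and Abcg1 (0.98, adjusted p = 6.5e-05). Hsd17b7 was called with TMM scaling (-0.36, adjusted p = 0.0481) and Abcg1 with a pseudocount of 5 (0.97, adjusted p = 0.0211).

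**Figure D3:**
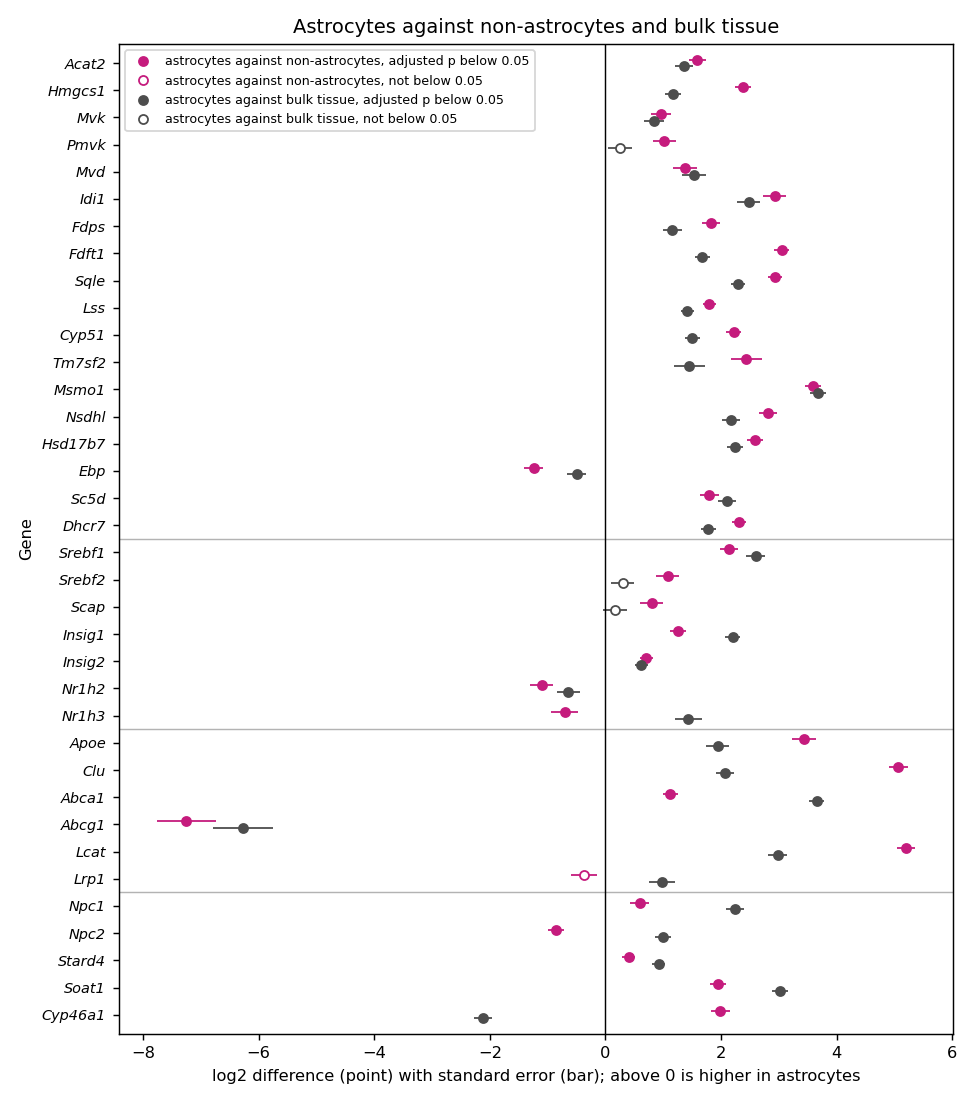
Log2 difference (point) and standard error (bar) of each member for astrocytes against non-astrocytes and against bulk tissue, in the order of roles, with filled points for an adjusted p below 0.05. Most synthesis enzymes lie right of 0 in both, Abcg1 lies at -7.25 and -6.27, and Cyp46a1, Npc2, Nr1h3 and Lrp1 change side between the comparisons.

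Layers were compared within each fraction. In astrocytes limma called none of the 36 members between upper and deep layers (18 genes of 22575, 0.0797%), and at an unadjusted p below 0.05 it counted 2, Apoe and Nr1h2. EdgeR and DESeq2 on the recovered reads also called 0 members. Same-numbered upper and deep astrocyte libraries deviated together, and with the replicate number as a block 188 genes were called, still with no member among them. Libraries of the 2 layers did not overlap for 3 members, Insig1, Apoe and Npc2, all higher in the upper layers, where 8.70% of all genes were higher without overlap, and for no member in the other direction, against 7.31% of all genes.

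Apoe counts, given above, were 47049 to 67759 in deep and 72772 to 101526 in upper layer astrocytes, a difference of 0.74 (SE 0.257, adjusted p = 0.388). For Nr1h2 the difference was 0.55 (SE 0.249, adjusted p = 0.469), for Sqle 0.31 (SE 0.151, adjusted p = 0.491) and for Srebf2 0.51 (SE 0.248, adjusted p = 0.491) (limma). For all 3 the ranges of the layers overlapped, but the upper layer library was the higher one in each of the 3 same-numbered pairs, as it was for Apoe. The log2 differences of the pairs were 0.34, 1.29 and 0.03 for Nr1h2, 0.38, 0.08 and 0.48 for Sqle and 0.14, 0.93 and 0.45 for Srebf2. With the block, limma gave adjusted p = 0.196 for Nr1h2 (SE 0.211), 0.167 for Sqle (SE 0.111), 0.103 for Srebf2 (SE 0.139) and 0.0588 for Apoe (SE 0.153). In all, 17 of the 36 members were higher in the upper layers in every pair, against 19.9% of all genes, and 0 were lower in every pair, against 18.0%. The 17 comprised 6 enzymes (Mvk, Fdps, Fdft1, Sqle, Tm7sf2 and Dhcr7), 5 regulators (Srebf1, Srebf2, Scap, Insig1 and Nr1h2), 3 efflux genes (Apoe, Clu and Lrp1) and 3 of the last group (Npc1, Npc2 and Cyp46a1). The 18 enzymes had a median of 0.12 against 0.01 over all genes, with 14 above 0 and 4 below. For Hmgcs1 the astrocyte layer difference was 0.02 with a 95% interval of -0.36 to 0.39, and for Cyp51 0.08 with -0.27 to 0.43.

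In non-astrocytes limma called no member between layers either (1 gene in all, 0.00443%), but 11 of the 18 enzymes and none of the other 18 members had an unadjusted p below 0.05. All 18 enzymes lay below 0, with a median of -0.57 against -0.03 over all genes. For 14 of the 18 both upper layer libraries lay below both deep layer libraries, against 13.7% of all genes. None of the enzymes was higher without overlap, against 11.8% of all genes. Among the other members, Cyp46a1 was higher without overlap and none was lower.

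The enzyme with the smallest p was Cyp51, read at 6949, 8623 and 8532 in deep layer astrocytes, 7319.6, 7994 and 10280.5 in upper layer astrocytes, 2606 and 2182 in deep layer non-astrocytes, 1135 and 1511 in upper layer non-astrocytes, 3420.0 and 3289 in deep layer bulk tissue, and 2409.9 and 2613 in upper layer bulk tissue. Its upper layer non-astrocytes lay below the deep layer ones, with a log2 difference of -0.86 (SE 0.202, adjusted p = 0.281). The difference of Hmgcs1 was -0.91 (SE 0.214, adjusted p = 0.291) (limma). DESeq2 on the recovered reads called Cyp51 (-0.85, adjusted p = 0.0165), Hmgcs1 (-0.91, adjusted p = 0.0163) and Fdps (-1.0, adjusted p = 0.0413), where edgeR called 0 members. Without the upper layer non-astrocytes replicate 1, which stood apart, the differences were -0.66 for Cyp51 (SE 0.229), -0.82 for Hmgcs1 (SE 0.263), -0.90 for Fdps (SE 0.303) and -1.06 for Idi1 (SE 0.385), with 1 library left in that group and no member called.

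Fdps was read at 755.3, 763.1 and 1047 in deep layer astrocytes, 838.3, 910.1 and 1355 in upper layer astrocytes, 360.9 and 373.8 in deep layer non-astrocytes, 171.2 and 196.6 in upper layer non-astrocytes, 545.1 and 488.7 in deep layer bulk tissue, and 378.8 and 286.5 in upper layer bulk tissue. Both upper layer non-astrocyte libraries lay below every other library, and the layer difference in that fraction was -1.0 (SE 0.248, adjusted p = 0.352) (limma). With the replicate number as a block limma called it (adjusted p = 0.0484). Idi1 was read at 3772, 8564 and 4568 in deep layer astrocytes, 4039.8, 4641 and 5009.6 in upper layer astrocytes, 1074 and 839.3 in deep layer non-astrocytes, 414.6 and 454.1 in upper layer non-astrocytes, 1091 and 908.1 in deep layer bulk tissue, and 928.0 and 637.1 in upper layer bulk tissue. The deep and upper layer non-astrocytes did not overlap for Idi1, and the layer difference was -1.13 (SE 0.303, adjusted p = 0.495) (limma).

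For the enzymes, the differences in bulk tissue had the same direction and a smaller median. Limma called no member (103 genes in all, 0.456%). At an unadjusted p below 0.05 it counted 1 enzyme, Fdps (-0.65, SE 0.248, adjusted p = 0.49), and 1 other member, Npc2 (-0.50, SE 0.219, adjusted p = 0.619). Cyp51 (-0.42, SE 0.202, adjusted p = 0.722) and Cyp46a1 (0.50, SE 0.245, adjusted p = 0.738) came next. All 18 enzymes lay below 0, with a median of -0.28 against 0.00 over all genes, and 11 of the 18 were lower in the upper layers without overlap, against 21.3% of all genes. None of the enzymes was higher without overlap, against 22.4% of all genes, while Srebf2, Abca1, Lrp1 and Cyp46a1 were. The non-overlapping genes Srebf1, Clu, Abcg1 and Npc2 were lower.

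Summed RNA of oligodendrocyte and some other cell markers also differed between the layers, although limma called few single markers. The 10 oligodendrocyte and myelin markers summed to 118644 to 161676 in deep and 55761 to 64070.3 in upper layer non-astrocytes, and to 133904 to 157514 in deep and 40060.5 to 43643.5 in upper layer bulk tissue. In astrocytes the sums were 4985 to 6177 in deep and 3717 to 4998 in upper layers. All 10 markers lay below 0 in non-astrocytes (median -1.30, none called) and in bulk tissue (median -1.82, 6 called by limma). In astrocytes 8 of the 10 lay below 0 (median -1.16, 1 called). A list of 8 oligodendrocyte lineage genes, not all particular to precursors, held Pdgfra, Cspg4, Olig1, Olig2, Sox10, Gpr17, Enpp6 and Bcas1. Its sums overlapped in non-astrocytes, at 48929 to 77866 in deep and 37193 to 66082 in upper layers. There 7 of the 8 lay below 0 (median -0.51, none called). Cspg4 lay above 0, at 3372.9 and 6416.5 in deep and 3785.0 and 6508.9 in upper layers. In bulk tissue the 8 genes summed to 12720 to 13037 in deep and 7550.5 to 8198 in upper layers, and all lay below 0 (median -0.68, none called). In non-astrocytes all 10 neuron markers lay above 0 (median 0.74, none called), with sums of 4842 to 6978 in deep and 8804 to 10488 in upper layers. All 5 meningeal fibroblast markers did too (median 0.60, none called), with sums of 8399.9 to 10827 and 12069 to 19930.5. The part of these cells in the enzyme values was not tested.

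The summed counts of the 18 enzymes were 75047 to 100922 in deep and 83879 to 101978 in upper layer astrocytes, 18222 to 19751 and 11196 to 13358 in deep and upper layer non-astrocytes, and 24949 to 25967 and 20925 to 21168 in bulk tissue. The layers overlapped in astrocytes and did not in the other fractions.

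Whether the layer difference itself differed between fractions was tested as an interaction in limma. Against non-astrocytes no member was called (1 gene in all, 0.00443%), although 11 of the 18 enzymes had an unadjusted p below 0.05 and all 18 lay above 0, with a median of 0.71 against 0.06 over all genes. The smallest p-values were those of Fdps (1.26, SE 0.320, adjusted p = 0.411), Sqle (0.89, SE 0.239, adjusted p = 0.49), Cyp51 (0.94, SE 0.261, adjusted p = 0.497) and Hmgcs1 (0.92, SE 0.277, adjusted p = 0.59). Against bulk tissue no member was called (31 genes in all, 0.137%), and 1 enzyme and 1 other member had an unadjusted p below 0.05. The smallest were Npc2 (0.87, SE 0.282, adjusted p = 0.371), Fdps (0.91, SE 0.320, adjusted p = 0.43), Clu (0.62, SE 0.320, adjusted p = 0.664) and Cyp51 (0.50, SE 0.261, adjusted p = 0.669). Both interactions use the astrocyte libraries. EdgeR and DESeq2 called 0 members in them.

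**Figure D4:**
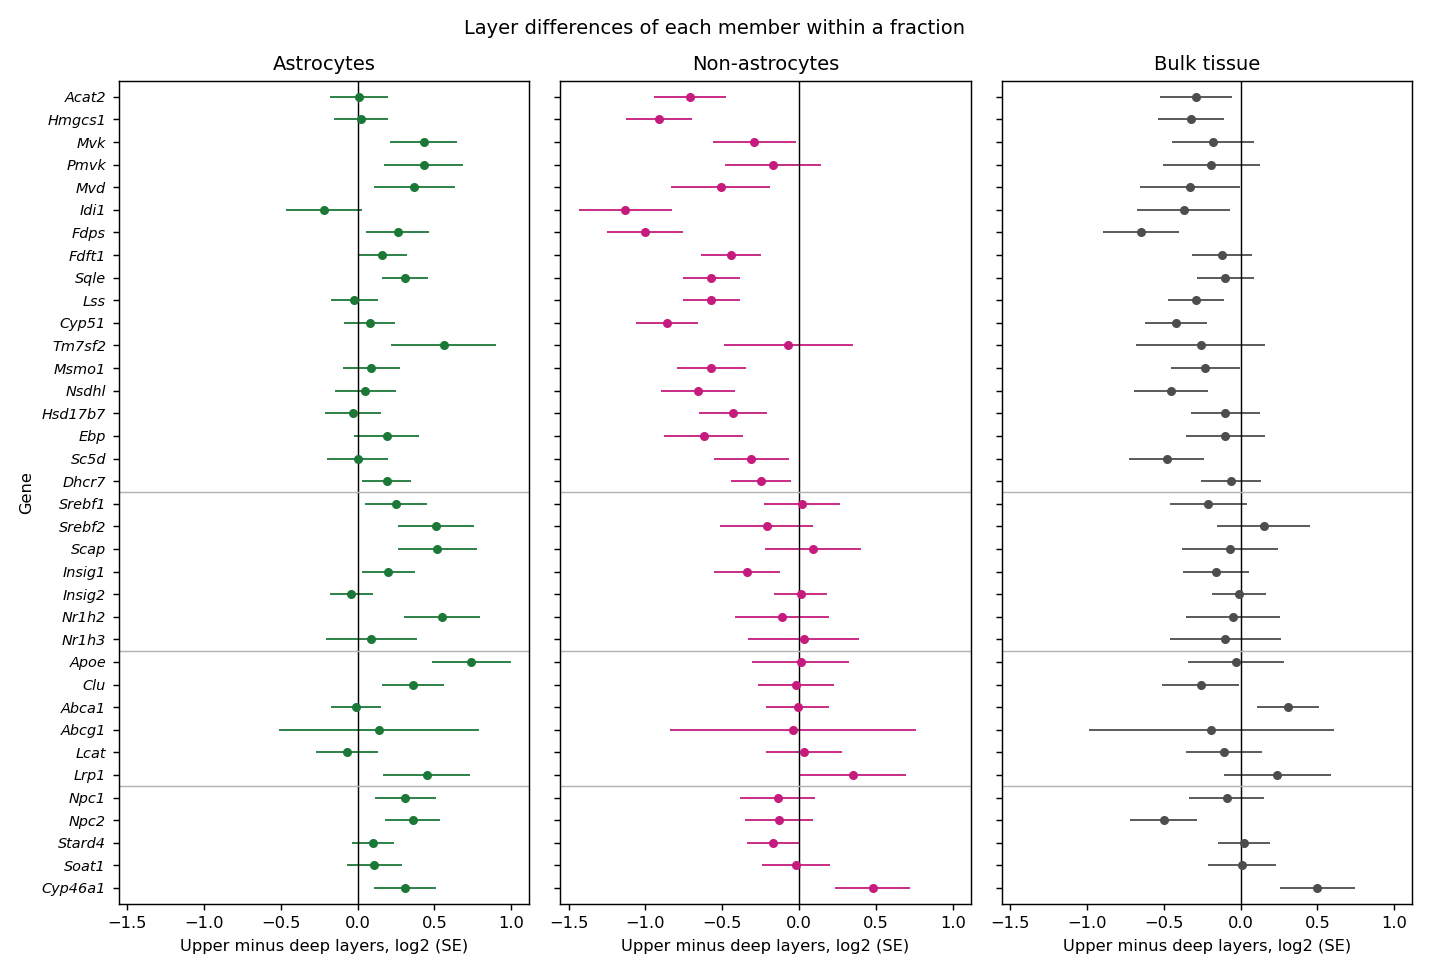
Upper minus deep layer difference (log2, with standard error) of each member in astrocytes, non-astrocytes and bulk tissue, in the order of roles. The 18 enzymes at the top lie left of 0 in non-astrocytes (median -0.57) and bulk tissue (median -0.28) and on both sides of it in astrocytes (median 0.12).

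Other genes of the pathway were read from lists of 56 genes, of which 55 could be tested. Of 8 fatty acid synthesis genes known as SREBP1 targets, 8 rose in astrocytes against non-astrocytes (median 2.22), led by the desaturase Scd1 (3.94) and the acetyl-CoA synthetase Acss2 (3.25), and 8 rose against bulk tissue (median 0.83). Between non-astrocytes and bulk tissue 7 of them were lower and Acly was higher (limma). The shares of all genes called are those given above for each comparison. Their layer differences in non-astrocytes were all below 0, with a median of -0.56, and none was called.

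The other lists split between astrocytes and non-astrocytes. Of 6 genes of SREBP activation and degradation, 2 rose and 1 fell, led by the ubiquitin ligase Rnf139 (1.19) and the protease Mbtps1 (-0.77). Of 8 lipoprotein receptors and uptake genes, 4 rose and 3 fell, with Sorl1, a sorting receptor, at 3.66 and Mylip, a ligase that degrades lipoprotein receptors and is an LXR target, at -3.49. Of 8 further apolipoproteins and efflux genes, 5 rose and 3 fell, with the phospholipid transfer protein Pltp at -5.24 and Apod at -4.85.

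Of 13 genes of intracellular sterol transfer 5 rose and 8 fell, with Stard3, a late endosome sterol binder, at -1.74 and Gramd1b and Gramd1c, sterol transfer proteins of the endoplasmic reticulum, both at 1.18. Of 4 tested oxysterol enzymes 1 rose and 2 fell, with the hydroxylases Cyp7b1 at 3.61 and Cyp39a1 at -3.90. Of 8 genes of the isoprenoid branch 5 rose and 1 fell, with Pdss1, which makes the side chain of ubiquinone, at 2.19 and Pdss2, its partner subunit, at 0.56. The shares of all genes called, 29.6% higher and 36.8% lower, are the background of these counts.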

How the data were processed

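RNA had been amplified with NuGEN's single primer isothermal system, per the labels' protocols. TopHat2 2.0.11, HTSeq 0.6.1p1, CASAVA and DESeq2 are the tools named, with build GRCm38, per the submitters' processing notes. No source used here assigns libraries to sequencing lanes. The deposited values are a signal: the authors divided the counts of each library by its size factor (0.705 to 1.3025), and 100% were whole multiples of 1 read within 1e-06. The labels' characteristics field names bulk tissue for upper layer astrocytes and non-astrocytes, and the titles were followed. Every value column was matched to a sample.

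Limma 3.58.1 (R 4.3.3; intensity trend, robust moderation) was fitted on log2(value + 1) to 22575 genes with a value of at least 10 in at least 2 libraries, as 6 group means with 8 residual degrees of freedom; fractions were compared with both layers weighted equally. P-values were adjusted by Benjamini-Hochberg within each comparison and called below 0.05. Recovered reads were tested with edgeR 4.0.16 and DESeq2 1.42.0 as alternatives, beside other pseudocounts, filters, scaling, fewer groups in the fit, a replicate block and the removal of each library. The script was tested on simulated data. Same-numbered upper and deep libraries deviated together in astrocytes, with weak correlations of 0.20, 0.15 and 0.17. The pairing of astrocyte libraries was read from these values and not from the labels, and its cause was not tested. The main fit used no block. The 2 pairs each of non-astrocytes and bulk tissue gave 0.44 and 0.09. Exon lengths and coordinates came from GENCODE M21. Members, lists and rules were chosen with earlier results of these data known. By rule, every member was given by role, with all libraries for those with the largest differences, the highest levels per kilobase, a direction against their role, or the smallest p between layers.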

Additional observations from a re-analysis of the deposited data

How the results depend on the processing

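Of the differences of single members recomputed under the alternatives, 2901 kept their direction and call, 24 gained a call, 16 lost it and 3 changed sign. Those 3 were values near 0 in non-astrocytes against bulk tissue that were never called: Mvk ran from -0.24 to 0.01, Mvd from -0.01 to 0.33 and Msmo1 from -0.02 to 0.18 when 1 library was left out. Lrp1 was called lower in astrocytes than in non-astrocytes with the replicate block (-0.60) or without deep layer astrocytes replicate 3 (-0.50). Only astrocytes have a replicate 3, so with this block the comparison rests on astrocyte replicates 1 and 2. Deviations of same-numbered libraries of different fractions correlated at only -0.01 to 0.19, so the numbers give little ground for pairing across fractions. Pmvk and Srebf2 were called against bulk tissue without deep layer astrocytes replicate 2 (0.40) and upper layer astrocytes replicate 1 (0.44). The block changed no other call between fractions.

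Counts between fractions stayed within 1.5 times, and those between layers did not. For upper against deep layer astrocytes, 18 genes became 142 with DESeq2, 1 with only the groups compared, 188 with the replicate block and 12 to 56 without 1 library (most without deep layer astrocytes replicate 3). For non-astrocytes, 1 gene became 2 with a pseudocount of 5, 13 with no filter, 7 with edgeR, 139 with DESeq2, 0 with only those groups, 33 with the block and 0 to 12 without 1 library (none without upper layer non-astrocytes replicate 1, most without deep layer astrocytes replicate 2); 3 synthesis enzymes were called by DESeq2 and 1, Fdps (adjusted p = 0.0484), with the block. For bulk tissue, 103 genes became 231 with a pseudocount of 5, 170 with edgeR, 428 with DESeq2, 1093 with only those groups, 261 with the block and 11 to 216 without 1 library (fewest without deep layer bulk tissue replicate 1, most without deep layer astrocytes replicate 2); with only those groups 1 other member, Cyp46a1, was called (adjusted p = 0.0359). The interaction with non-astrocytes had 1 gene, and 59 with DESeq2, 0 with only those groups, 4 with the block and 0 to 2 without 1 library. The interaction with bulk tissue had 31, and 74 with a pseudocount of 5, 50 with edgeR, 200 with DESeq2, 112 with the block and 0 to 72 without 1 library. A group left with 1 library was assumed to vary like the other groups. The cause was not tested. The labels do not say whether same-numbered libraries of the 2-library groups belong together. Their deviations correlated at 0.44 in non-astrocytes and 0.09 in bulk tissue. With 2 libraries per group both pairs give the same value, so pairing cannot be judged from it. Groups of 2 and 3 libraries limit what the layer comparisons can detect.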
